A study of Homo sapiens with 8 samples.

Results

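Translation initiation factors were examined in HEK293T cells with and without XRN1, the exonuclease that degrades decapped mRNA from its 5′ end in the cytoplasm. Genes were taken by name: every gene of the count table whose symbol starts with EIF, leaving out EIF2AK2, EIF4E2, EIF4ENIF1 and hyphenated names. The rule gave 45 of the 10105 genes, of which 13 have EIF2 names, 12 EIF3 names, 11 EIF4 names, and 9 are EIF1, EIF5 or EIF6 genes. HEK293T is a human embryonic kidney line that carries the SV40 large T antigen. Wild-type (WT) cells were compared with XRN1-null cells, 1 line made from them by CRISPR/Cas9 editing of XRN1. The labels name no treatment of either line, and whether a translation inhibitor was used for Ribo-Seq is not given in the sources used here. All dishes were harvested 24 h after plating. Each genotype was measured by RNA-Seq of mRNA and by Ribo-Seq, which sequences ribosome-protected fragments (RPFs), in 2 biological replicates, so that there were 8 libraries. Per gene, RNA-Seq counts measure the mRNA captured, whole or in part, and RPF counts the ribosomes on it. The study's authors propose that uncapped mRNA fragments, which are not translated, build up in XRN1-null cells and enter the RNA-Seq counts. Counts per gene do not tell such fragments from whole mRNA, and their part was not tested here. The change in RPF relative to the change in mRNA is the change in translation efficiency (TE).

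Initiation factors bring the small ribosomal subunit to the start codon. eIF2 carries the initiator tRNA in a GTP-bound state, eIF2B recharges it by nucleotide exchange, and kinases of the EIF2AK family halt that exchange under stress by phosphorylating the α subunit of eIF2. eIF3 is the large scaffold on the small subunit, and eIF4F (the cap-binding protein eIF4E, the scaffold eIF4G and the helicase eIF4A) binds the mRNA cap, where the 4E-binding proteins (EIF4EBP genes) compete with eIF4G for eIF4E. eIF1 and eIF1A govern scanning and start codon choice, eIF5 and eIF5B act in GTP hydrolysis and subunit joining, and eIF5A helps the elongating ribosome through difficult stretches. Some of these mRNAs begin with a terminal oligopyrimidine (TOP) tract, a C at the cap followed by a run of pyrimidines, which is known from ribosomal protein mRNAs and ties their translation to mTOR signalling.

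To show which members carry such a start, the first 30 bases of the annotated reference transcript were read for each gene (GENCODE annotation of GRCh37). A start was counted as TOP-like where the first base was C and at least 4 pyrimidines followed it without a break. By this rule 13 of the 45 members had a TOP-like start (28.9%), against 559 of 10027 matched genes (5.57%). They were unevenly spread, with 8 of 12 EIF3 genes (66.7%), 3 of 13 EIF2 genes (23.1%), 2 of 11 EIF4 genes (18.2%) and none of the 9 EIF1, EIF5 and EIF6 genes. The sequences that follow are 10 of these starts, those of 6 EIF3 genes, EIF4A2, EIF4B, EIF2A and EIF2S3, with the unbroken C or T run from the first base in capitals.
EIF3A (chr10:120840300-120840329, - strand): CCTTTCCgtctctggccggctgggcgcggg
EIF3D (chr22:36925184-36925213, - strand): CTCTTTTCCTggtttctcaagagtgctgct
EIF3F (chr11:8008884-8008913, + strand): CTTCTTTCTCgacaagatggccacaccggc
EIF3K (chr19:39109828-39109857, + strand): CTCTTCCTgttcccgtccttgaggacgccg
EIF3L (chr22:38245426-38245455, + strand): CTTTCCggcggtgctcgcaagcgaggcagc
EIF3M (chr11:32605377-32605406, + strand): CTTTTCCggtcggcgtggtcttgcgagtgg
EIF4A2 (chr3:186501366-186501395, + strand): CTTTTCagtcgggcgctgagtggtttttcg
EIF4B (chr12:53400240-53400269, + strand): CTTTTgcgttctctttccctctcccaacat
EIF2A (chr3:150264574-150264603, + strand): CTCTTTCCgggacaacatggcgccgtccac
EIF2S3 (chrX:24073073-24073102, + strand): CTCTTTTggcaacatggcgggcggagaagc
For contrast, the helicase EIF4A1 starts with a C or T run of 3 bases and its paralog EIF4A2 with a run of 6. The cap-binding protein EIF4E and the elongation-stage factor EIF5A begin with a purine, and so have no run in capitals.
EIF4A1 (chr17:7476143-7476172, + strand): CCTagtttctaaggatcatgtctgcgagcc
EIF4E (chr4:99850255-99850284, - strand): gtgcgatcagatcgatctaagatggcgact
EIF5A (chr17:7210947-7210976, + strand): gtactaagacccgtgtgcagcagcggcggc
Coordinates are those of GRCh37, and a match to the letters of an annotated start is a description of the annotation, not a mapped cap site in these cells.

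The libraries held 33757487 to 38145433 counts by RNA-Seq and 1921641 to 4399542 by Ribo-Seq, of which the 45 members took 1.44% to 1.48% and 1.40% to 1.52%. XRN1 itself was at 33.5 and 33.0 CPM in WT and 282 and 253 CPM in XRN1-null by RNA-Seq and at 34.4 and 49.8 CPM in WT and 22.6 and 18.4 CPM in XRN1-null by Ribo-Seq. Its transcript was thus counted more often in the edited line (log2 change 3.01 ± 0.08 (SE), edgeR FDR 1.92e-06), and its RPFs less often (-1.08 ± 0.20 (SE), edgeR FDR 0.00641), but not at 0. The counts separate the genotypes in both assays and measure neither the protein nor the edit. Of 8 markers fixed for HEK293T cells, 7 were in the table, and 4 markers of blood, liver, stromal and endothelial cells were not in it. The WT replicates lay farther apart than the XRN1-null replicates. The median absolute log2 ratio of replicate 2 to replicate 1 over the members was 0.12 in WT and 0.04 in XRN1-null for mRNA, and 0.23 and 0.11 for RPF. Over all genes these medians were 0.11, 0.05, 0.23 and 0.13. WT replicate 1 of Ribo-Seq was also the shallowest library. In such bulk libraries, fewer cells of a kind and less RNA per cell cannot be told apart.

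Of the 45 members, 8 were called higher and 10 lower in XRN1-null cells by RNA-Seq at an FDR below 0.005 (edgeR quasi-likelihood test, adjusted over all 10105 genes), and 27 were not called. Over all genes, 22.9% were called higher and 23.2% lower, so the members' share called in either direction, 40.0%, lay near the 46.1% of the whole table. Under library totals in place of the TMM scaling the split was 9 higher and 6 lower, beside 2664 and 1924 of all genes. Without XRN1-null replicate 1 or replicate 2 of RNA-Seq 4 were higher and 3 lower each time, as were 1632 and 1113, or 1652 and 1097, of all genes. The mRNA calls lost both times were those of EIF2B4, EIF2B5, EIF4A2 and EIF5 among the higher members and EIF1AX, EIF2A, EIF2AK1, EIF2S3, EIF3F, EIF3K and EIF4EBP2 among the lower ones, with edgeR FDRs from 0.00541 to 0.086. Under library totals the calls of EIF1AX, EIF2A, EIF2AK1 and EIF3F were lost, and that of EIF2B4 when RNA-Seq counts were drawn down to Ribo-Seq depth. Without WT replicate 1 of RNA-Seq 11 members were higher and 20 lower, beside 3195 and 3114 of all genes, and without WT replicate 2 15 and 20, beside 3410 and 3389. The counts of members and of all genes thus went up and down together. By Ribo-Seq 1 member was called higher, EIF4A2, and 0 lower, where 0.633% of all genes were called higher and 1.14% lower. At an unadjusted p below 0.05 in the same edgeR test 8 members were higher and 4 lower in RPF, against 16.2% and 16.8% of all genes, and DESeq2 called 2 higher and 0 lower, beside 94 and 116 of all genes. Without WT replicate 1 of Ribo-Seq 4 were higher and 3 lower in RPF, beside 588 and 707 of all genes, and without WT replicate 2 15 and 6, beside 1282 and 1087. No member was called in TE, where 0.0495% of all genes were called higher and 1.78% lower. At an unadjusted p below 0.05 by edgeR, TE was higher for 8 members and lower for 1, against 8.76% and 14.6% of all genes, and DESeq2 called 0 in either direction, beside 7 higher and 322 lower of all genes. At an FDR below 0.05 (edgeR) 11 members were higher and 20 lower in mRNA, beside 32.8% and 34.2% of all genes. In RPF these counts were 4 and 3, beside 7.07% and 8.38%, and in TE 1 (EIF2A) and 1 (EIF2B2), beside 1.02% and 6.46%. The p-values measure the spread between cultures of 1 edited and 1 parental line. In mRNA both XRN1-null libraries lay above both WT libraries in 13 of the 45 members and below both in 26. In RPF these counts were 19 and 9, so a separation of the libraries alone does not single out a member. The share of all genes separated in this way was not counted. In the tests that follow, n was 2 libraries in each group, and per-library values are given for replicates 1 and 2 as CPM (counts per 1000000, on TMM-scaled library totals within each assay).

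**Figure D1:**
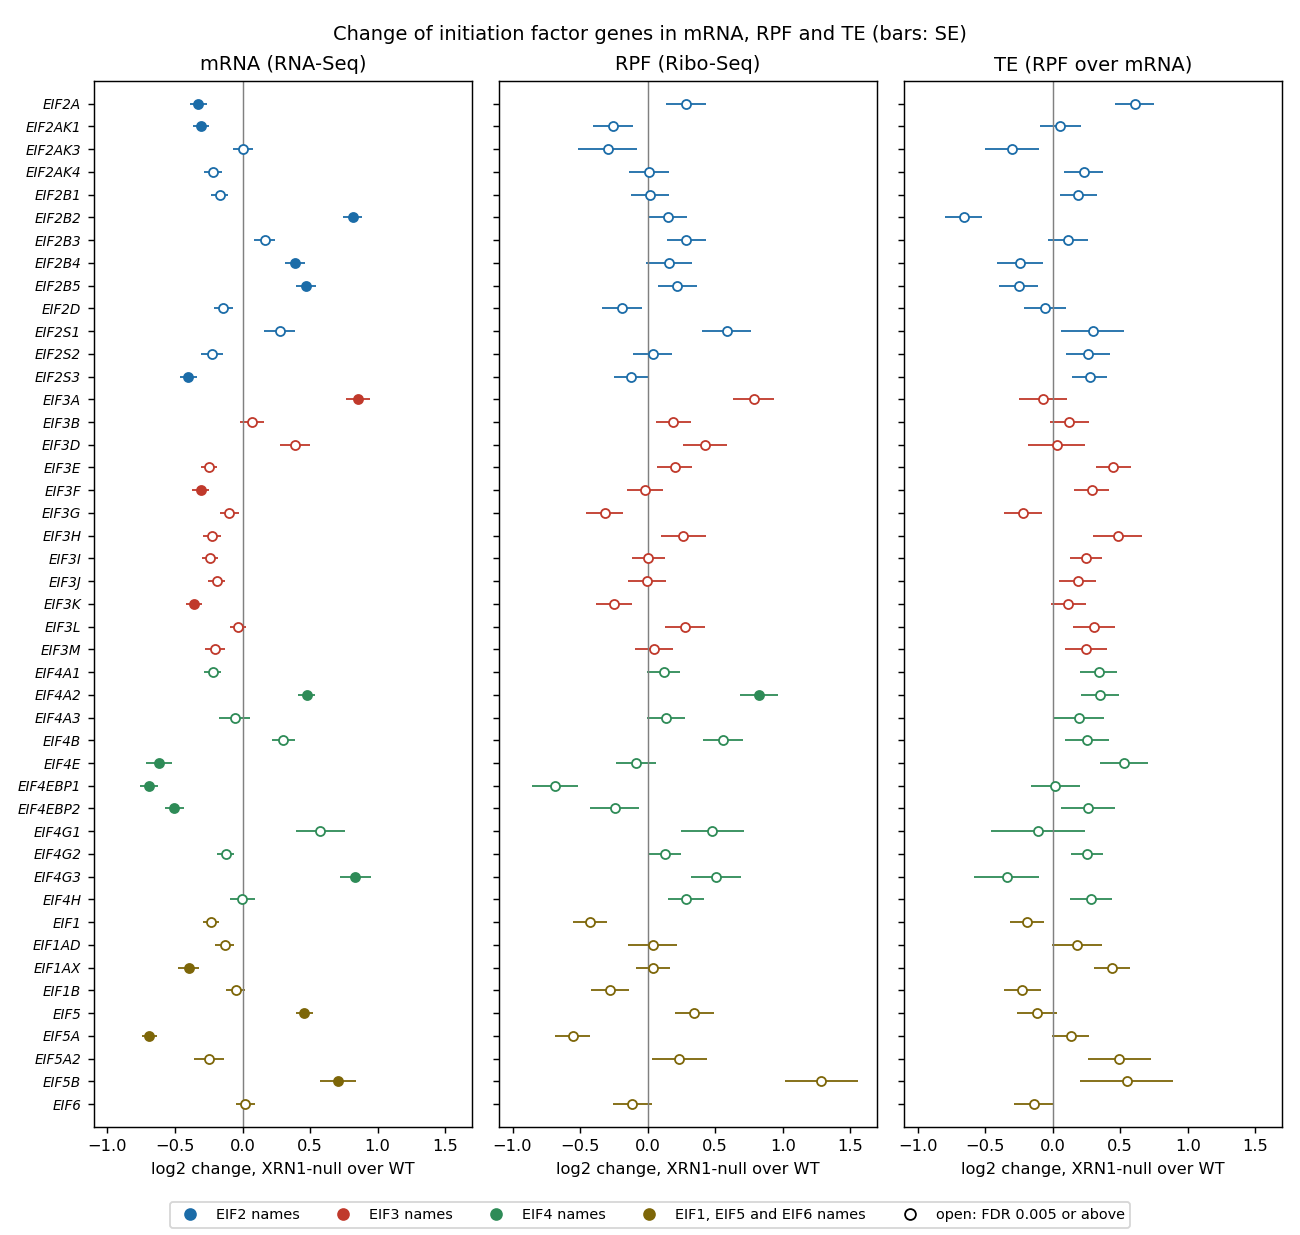
Log2 change in XRN1-null over WT cells of each of the 45 initiation factor genes in mRNA, RPF and TE, with bars of 1 SE from the edgeR fit (2 libraries in each group) and colours for the gene groups; filled points passed an FDR of 0.005. The mRNA changes run from -0.69 (EIF4EBP1) to 0.86 (EIF3A), EIF4A2 is the filled point in RPF, and no TE point is filled.

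The eIF2 heterotrimer is encoded by EIF2S1, EIF2S2 and EIF2S3, its α, β and γ subunits. Among these 3 genes 1 fell in mRNA, where 23.2% of all genes did, and none passed the test in RPF. EIF2S3 mRNA was at 508 and 539 CPM in WT and 396 and 397 CPM in XRN1-null, and fell by 24.2% (log2 change -0.40 ± 0.06 (SE), edgeR FDR 0.000996). Its RPF was at 591 and 637 CPM in WT and 554 and 572 CPM in XRN1-null, a log2 change of -0.13 ± 0.13 (SE), edgeR FDR 0.517. The XRN1-null libraries were the lower in both assays, without overlap, though the RPF change was not called. EIF2S1, whose product is the target of the eIF2 kinases, was at 80.0 and 103 CPM in WT and 109 and 112 CPM in XRN1-null for mRNA (log2 change 0.27 ± 0.11 (SE), edgeR FDR 0.0614). Its RPF was at 95.8 and 149 CPM in WT and 184 and 190.4 CPM in XRN1-null (log2 change 0.58 ± 0.18 (SE), edgeR FDR 0.0503). WT replicate 1 was the low library in both assays, and the XRN1-null libraries lay close to each other. EIF2S2 was at 245 and 282 CPM in WT and 222 and 229 CPM in XRN1-null for mRNA (-0.22 ± 0.08 (SE), edgeR FDR 0.0394) and at 309.9 and 345 CPM in WT and 369 and 304 CPM in XRN1-null for RPF (0.04 ± 0.15 (SE), edgeR FDR 0.879). The TE changes of the 3 subunits lay between 0.26 and 0.30, and none was called (edgeR FDR 0.482, 0.38 and 0.223).

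The 5 subunits of eIF2B, the exchange factor of eIF2, included 3 that rose in mRNA (EIF2B2, EIF2B4 and EIF2B5) and 2 that were not called, with a median log2 change of 0.39 beside -0.01 over all genes. Over all genes 22.9% were called higher and 23.2% lower in mRNA, and no test compared the subunits with these shares. None of the 5 passed the test in RPF, where the median was 0.16 beside 0.00 over all genes. EIF2B2, the β subunit, was at 48.5 and 52.5 CPM in WT and 88.6 and 89.0 CPM in XRN1-null for mRNA and rose 1.76-fold (0.81 ± 0.07 (SE), edgeR FDR 5.19e-05). Its RPF was at 62.0 and 59.0 CPM in WT and 64.3 and 69.9 CPM in XRN1-null (0.15 ± 0.14 (SE), edgeR FDR 0.476). The mRNA values of the genotypes were far apart, and the RPF values were close, which gave EIF2B2 the most negative TE change of the 45 members (-0.66 ± 0.13 (SE), edgeR FDR 0.0119). EIF2B5, the catalytic ε subunit, was at 46.7 and 52.1 CPM in WT and 67.9 and 68.9 CPM in XRN1-null for mRNA (0.47 ± 0.07 (SE), edgeR FDR 0.000928) and at 42.2 and 45.3 CPM in WT and 51.2 and 51.5 CPM in XRN1-null for RPF (0.22 ± 0.15 (SE), edgeR FDR 0.314). EIF2B4, the δ subunit, was at 36.4 and 40.4 CPM in WT and 49.5 and 50.8 CPM in XRN1-null for mRNA (0.39 ± 0.07 (SE), edgeR FDR 0.00252) and at 39.6 and 54.4 CPM in WT and 55.6 and 52.4 CPM in XRN1-null for RPF (0.16 ± 0.17 (SE), edgeR FDR 0.536). In EIF2B4, WT replicate 1 was the low RPF library, and WT replicate 2 lay among the XRN1-null libraries. EIF2B3, the γ subunit that pairs with ε, was at 36.9 and 41.5 CPM in WT and 44.7 and 43.2 CPM in XRN1-null for mRNA (0.17 ± 0.08 (SE), edgeR FDR 0.0944) and at 54.7 and 64.3 CPM in WT and 76.5 and 70.5 CPM in XRN1-null for RPF (0.29 ± 0.15 (SE), edgeR FDR 0.193). EIF2B1, the α subunit, was at 113 and 108 CPM in WT and 97.9 and 98.7 CPM in XRN1-null for mRNA (-0.17 ± 0.06 (SE), edgeR FDR 0.0468) and at 89.1 and 80.2 CPM in WT and 87.7 and 82.1 CPM in XRN1-null for RPF (0.02 ± 0.14 (SE), edgeR FDR 0.95). For EIF2B1 the XRN1-null mRNA values were the lower, and the RPF values of the genotypes overlapped.

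The eIF2 kinases showed 1 call, a lower mRNA of EIF2AK1, the kinase that responds to heme shortage, where 23.2% of all genes were called lower. EIF2AK1 mRNA was at 324 and 323 CPM in WT and 262 and 260.3 CPM in XRN1-null and fell by 19.3% (-0.31 ± 0.06 (SE), edgeR FDR 0.00264), with RPF at 231 and 192 CPM in WT and 185 and 167 CPM in XRN1-null (-0.26 ± 0.15 (SE), edgeR FDR 0.25). EIF2AK3, the endoplasmic reticulum stress kinase PERK, was at 26.3 and 26.2 CPM in WT and 26.4 and 26.3 CPM in XRN1-null for mRNA (0.01 ± 0.07 (SE), edgeR FDR 0.95) and at 16.1 and 15.4 CPM in WT and 11.9 and 13.7 CPM in XRN1-null for RPF (-0.30 ± 0.22 (SE), edgeR FDR 0.365). Its mRNA was nearly equal in all 4 libraries, and its TE change was -0.30 ± 0.20 (SE), edgeR FDR 0.401, and -0.19 without XRN1-null replicate 1 of Ribo-Seq. EIF2AK4, the amino acid sensor GCN2, was at 102 and 94.1 CPM in WT and 84.3 and 84.3 CPM in XRN1-null for mRNA (-0.22 ± 0.07 (SE), edgeR FDR 0.0221) and at 44.8 and 45.0 CPM in WT and 46.9 and 43.4 CPM in XRN1-null for RPF (0.01 ± 0.15 (SE), edgeR FDR 0.97). No RPF change of a kinase was called.

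EIF2A and EIF2D are single-chain proteins, not subunits of eIF2, that can deliver initiator tRNA. EIF2A mRNA was at 127 and 126 CPM in WT and 101 and 101 CPM in XRN1-null and fell by 20.3% (-0.33 ± 0.06 (SE), edgeR FDR 0.0021), while its RPF was at 111 and 135 CPM in WT and 155 and 147 CPM in XRN1-null (0.29 ± 0.15 (SE), edgeR FDR 0.195). Both XRN1-null libraries lay below WT in mRNA and above it in RPF, without overlap, and its TE change was the most positive of the 45 members (0.61 ± 0.14 (SE), edgeR FDR 0.0241). EIF2D was at 127 and 119 CPM in WT and 115 and 108 CPM in XRN1-null for mRNA (-0.14 ± 0.07 (SE), edgeR FDR 0.106) and at 50.0 and 58.8 CPM in WT and 46.7 and 50.3 CPM in XRN1-null for RPF (-0.19 ± 0.15 (SE), edgeR FDR 0.403), with overlapping RPF values.

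Of the 12 EIF3 genes, 1 rose in mRNA (EIF3A), 2 fell (EIF3F and EIF3K) and 9 were not called, and none was called in RPF or TE. The share called in mRNA was 25%, beside 46.1% of all genes (22.9% higher and 23.2% lower), a difference that was not tested. The median log2 change was -0.20 in mRNA, 0.12 in RPF and 0.22 in TE. EIF3A, the largest subunit and scaffold of the complex, was at 305 and 359 CPM in WT and 611 and 591 CPM in XRN1-null for mRNA and rose 1.81-fold (0.86 ± 0.09 (SE), edgeR FDR 0.000122), the largest mRNA rise among the members. Its RPF was at 308 and 399 CPM in WT and 588 and 636 CPM in XRN1-null (0.78 ± 0.15 (SE), edgeR FDR 0.00713), so that both XRN1-null libraries lay higher in mRNA and in RPF, without overlap. Under DESeq2 the RPF change of EIF3A was called. EIF3D, a cap-binding subunit, had the next positive changes, with mRNA at 207 and 266 CPM in WT and 303 and 317 CPM in XRN1-null (0.39 ± 0.11 (SE), edgeR FDR 0.0164) and RPF at 227 and 311 CPM in WT and 350.1 and 376 CPM in XRN1-null (0.42 ± 0.16 (SE), edgeR FDR 0.0918), and neither was called. WT replicate 1 was the low library of EIF3D in both assays. EIF3K, a peripheral subunit, was at 199.9 and 193 CPM in WT and 153 and 153 CPM in XRN1-null for mRNA and fell by 22.1% (-0.36 ± 0.06 (SE), edgeR FDR 0.00136), with RPF at 372 and 338 CPM in WT and 297 and 301 CPM in XRN1-null (-0.25 ± 0.13 (SE), edgeR FDR 0.22). The log2 changes of EIF3B, EIF3G, EIF3I and EIF3J, of which none was called, ran from -0.24 (EIF3I) to 0.07 (EIF3B) in mRNA and from -0.32 (EIF3G) to 0.19 (EIF3B) in RPF.

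The 4 members that are established TOP mRNAs, EIF3E, EIF3F, EIF3H and EIF4B, had positive TE changes, none of them called. EIF3F mRNA was at 239.9 and 234 CPM in WT and 194 and 188 CPM in XRN1-null and fell by 19.3% (-0.31 ± 0.06 (SE), edgeR FDR 0.00302), while its RPF was at 268 and 274 CPM in WT and 257 and 278 CPM in XRN1-null (-0.02 ± 0.13 (SE), edgeR FDR 0.932). EIF3E, a subunit that links eIF3 to eIF4G, was at 518 and 520.0 CPM in WT and 441 and 432 CPM in XRN1-null for mRNA (-0.25 ± 0.06 (SE), edgeR FDR 0.00706) and at 637 and 723 CPM in WT and 796 and 768 CPM in XRN1-null for RPF (0.20 ± 0.13 (SE), edgeR FDR 0.298). EIF3H, a regulatory subunit, was at 172 and 184 CPM in WT and 153 and 151 CPM in XRN1-null for mRNA (-0.23 ± 0.06 (SE), edgeR FDR 0.016) and at 159 and 224 CPM in WT and 230.4 and 233 CPM in XRN1-null for RPF (0.26 ± 0.17 (SE), edgeR FDR 0.291). In EIF3E and EIF3H both XRN1-null libraries lay below both WT libraries in mRNA and above them in RPF, and in EIF3F the RPF values overlapped. EIF4B, a cofactor of the eIF4A helicase, was at 383 and 444 CPM in WT and 516 and 504 CPM in XRN1-null for mRNA (0.30 ± 0.08 (SE), edgeR FDR 0.0124) and at 156 and 191 CPM in WT and 254 and 259 CPM in XRN1-null for RPF (0.56 ± 0.15 (SE), edgeR FDR 0.0261). EIF4B was thus the member of the 4 whose mRNA and RPF both lay higher in XRN1-null cells. The TE changes were 0.29 ± 0.13 (SE), edgeR FDR 0.209, for EIF3F, 0.45 ± 0.13 (SE), edgeR FDR 0.0598, for EIF3E, 0.48 ± 0.18 (SE), edgeR FDR 0.14, for EIF3H, and 0.25 ± 0.16 (SE), edgeR FDR 0.39, for EIF4B.

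Of the 11 EIF4 genes, 2 rose in mRNA (EIF4A2 and EIF4G3), 3 fell (EIF4E, EIF4EBP1 and EIF4EBP2) and 6 were not called. The share called, 45.5%, lay near the 46.1% of all genes (22.9% higher and 23.2% lower). EIF4A2 was the member called in RPF. EIF4A2, the less abundant of the helicase paralogs in these cells, was at 259 and 248 CPM in WT and 347 and 359 CPM in XRN1-null for mRNA (0.48 ± 0.06 (SE), edgeR FDR 0.000427) and at 195 and 225 CPM in WT and 387 and 359.6 CPM in XRN1-null for RPF, where it rose 1.77-fold (0.83 ± 0.14 (SE), edgeR FDR 0.00465). The genotypes did not overlap in either assay, and the RPF change was larger than the mRNA change by 0.35 ± 0.14 (SE), edgeR FDR 0.167, which was not a TE call. The RPF call did not pass 0.005 when genes under 10 counts were left out of the fit (edgeR FDR 0.00533), or without XRN1-null replicate 1 (0.0739) or 2 (0.0325), with changes of 0.83, 0.77 and 0.88. EIF4A1, the main helicase, was at 1178 and 1278 CPM in WT and 1039 and 1067 CPM in XRN1-null for mRNA (-0.22 ± 0.06 (SE), edgeR FDR 0.0173) and at 1836 and 2134 CPM in WT and 2067 and 2247 CPM in XRN1-null for RPF (0.12 ± 0.12 (SE), edgeR FDR 0.527). The XRN1-null libraries of EIF4A1 were the lower in mRNA and overlapped WT in RPF. EIF4A3, the exon junction complex helicase, was at 175 and 226 CPM in WT and 188 and 196 CPM in XRN1-null for mRNA (-0.06 ± 0.11 (SE), edgeR FDR 0.668) and at 367 and 456 CPM in WT and 459.6 and 448 CPM in XRN1-null for RPF (0.14 ± 0.14 (SE), edgeR FDR 0.53).

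The cap-binding protein and its inhibitors fell in mRNA, but none of these 3 calls was left with each library's trend along coding length taken out (log2 changes -0.35, -0.26 and -0.08 for EIF4E, EIF4EBP1 and EIF4EBP2, edgeR FDR 0.00863, 0.00568 and 0.262). EIF4E was at 162 and 133 CPM in WT and 97.2 and 94.8 CPM in XRN1-null and fell by 34.8% (-0.62 ± 0.10 (SE), edgeR FDR 0.000973). EIF4EBP1 was at 145 and 136 CPM in WT and 88.1 and 85.6 CPM in XRN1-null and fell by 38.1% (-0.69 ± 0.07 (SE), edgeR FDR 9.00e-05). EIF4EBP2 was at 486 and 456 CPM in WT and 344 and 321 CPM in XRN1-null and fell by 29.5% (-0.50 ± 0.07 (SE), edgeR FDR 0.000494). In all 3 genes both XRN1-null libraries lay below both WT libraries. None of the 3 was called in RPF. EIF4E RPF was at 126 and 158 CPM in WT and 132 and 138 CPM in XRN1-null (-0.08 ± 0.15 (SE), edgeR FDR 0.723), with overlapping genotypes, and its TE change was 0.53 ± 0.18 (SE), edgeR FDR 0.0976, and 0.35 without WT replicate 1 of RNA-Seq. EIF4EBP1 RPF was at 90.1 and 68.7 CPM in WT and 52.4 and 44.0 CPM in XRN1-null (-0.68 ± 0.17 (SE), edgeR FDR 0.0206), about as far down as its mRNA. EIF4EBP2 RPF was at 57.8 and 41.3 CPM in WT and 43.2 and 37.5 CPM in XRN1-null (-0.24 ± 0.18 (SE), edgeR FDR 0.371), with 1 XRN1-null library inside the WT range. Per kb of coding sequence, the summed RPF of the EIF4EBP genes over that of EIF4E was 2.14 and 1.27 in WT, against 1.32 and 1.08 in XRN1-null. These ratios overlapped, with WT replicate 1 apart from the other 3 libraries, and their difference was not tested.

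Of the eIF4G scaffolds, EIF4G3 rose in mRNA, and EIF4G1 and EIF4G2 were not called. EIF4G3 was at 101 and 132 CPM in WT and 211 and 205 CPM in XRN1-null for mRNA and rose 1.78-fold (0.84 ± 0.12 (SE), edgeR FDR 0.00055), with RPF at 53.1 and 84.8 CPM in WT and 99.3 and 103 CPM in XRN1-null (0.51 ± 0.19 (SE), edgeR FDR 0.0819) and the second most negative TE change (-0.34 ± 0.24 (SE), edgeR FDR 0.433). Without WT replicate 1 of Ribo-Seq the RPF change of EIF4G3 was 0.26 and its TE change -0.57, and without WT replicate 2 they were 0.94, which was called, and 0.11. Without WT replicate 1 or 2 of RNA-Seq its TE change was -0.18 and -0.55. With each library's trend along coding length taken out, the EIF4G3 mRNA change was 0.37 and was not called (edgeR FDR 0.0154). EIF4G1 was at 289 and 452 CPM in WT and 530.5 and 573 CPM in XRN1-null for mRNA (0.58 ± 0.18 (SE), edgeR FDR 0.023) and at 157 and 298 CPM in WT and 286 and 357 CPM in XRN1-null for RPF (0.48 ± 0.23 (SE), edgeR FDR 0.177). WT replicate 1 was low in EIF4G1 in both assays, and its mRNA ratio of WT replicate 2 to replicate 1, 0.65 on the log2 scale, was the widest of the members. The EIF4G1 RPF of WT replicate 2 lay between those of the XRN1-null libraries. EIF4G2, a shorter relative without the eIF4E-binding part, was at 2062 and 1912 CPM in WT and 1850.0 and 1795 CPM in XRN1-null for mRNA (-0.13 ± 0.06 (SE), edgeR FDR 0.109) and at 738 and 725 CPM in WT and 799 and 798 CPM in XRN1-null for RPF (0.13 ± 0.12 (SE), edgeR FDR 0.493). EIF4H, the other helicase cofactor, was at 478 and 576 CPM in WT and 521 and 531 CPM in XRN1-null for mRNA (-0.00 ± 0.09 (SE), edgeR FDR 0.991) and at 291 and 313 CPM in WT and 380.2 and 355 CPM in XRN1-null for RPF (0.28 ± 0.13 (SE), edgeR FDR 0.163).

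Among the EIF1, EIF5 and EIF6 genes, EIF5 and EIF5B rose in mRNA, EIF1AX and EIF5A fell, and EIF1, EIF1AD, EIF1B, EIF5A2 and EIF6 were not called. EIF1AD was included by its name alone. The share called in mRNA was 44.4%, beside 46.1% of all genes. EIF5B, the GTPase of subunit joining, was at 65.9 and 91.0 CPM in WT and 124 and 132 CPM in XRN1-null for mRNA and rose 1.63-fold (0.71 ± 0.14 (SE), edgeR FDR 0.0026). Its RPF was at 29.7 and 73.5 CPM in WT and 123 and 147 CPM in XRN1-null (1.29 ± 0.27 (SE), edgeR FDR 0.0109), the largest RPF change of the 45 members and one that was not called. WT replicate 1 lay far below WT replicate 2 in RPF, by 1.29 on the log2 scale, the widest replicate gap among the members. Without WT replicate 1 of Ribo-Seq the RPF change was 0.87, and without WT replicate 2 it was 2.19. Without XRN1-null replicate 1 it was 1.44 and without replicate 2 it was 1.18. Under DESeq2 the RPF change was 1.39 and was not called (DESeq2 FDR 0.166). With a replicate block it was 1.41 and was called (edgeR FDR 4.84e-14). The TE change of EIF5B was 0.55 ± 0.34 (SE), edgeR FDR 0.373, and without WT replicate 1 or 2 of Ribo-Seq it was 0.17 and 1.48, and without WT replicate 2 of RNA-Seq 0.28, not called each time. EIF5, which stimulates GTP hydrolysis by eIF2, was at 479 and 509.5 CPM in WT and 687 and 671 CPM in XRN1-null for mRNA (0.46 ± 0.06 (SE), edgeR FDR 0.000524) and at 282 and 340.2 CPM in WT and 388 and 406 CPM in XRN1-null for RPF (0.35 ± 0.14 (SE), edgeR FDR 0.111). Its RPF change was 0.23 without WT replicate 1 of Ribo-Seq, and 0.50 and called without WT replicate 2. EIF5A was at 1260.2 and 1301 CPM in WT and 791 and 797 CPM in XRN1-null for mRNA and fell by 38.0% (-0.69 ± 0.06 (SE), edgeR FDR 5.36e-05), with RPF at 2080.4 and 1742 CPM in WT and 1334 and 1266 CPM in XRN1-null (-0.56 ± 0.13 (SE), edgeR FDR 0.0154). Its genotypes did not overlap in either assay. EIF1AX was at 570.3 and 502 CPM in WT and 411 and 403 CPM in XRN1-null for mRNA and fell by 24.1% (-0.40 ± 0.08 (SE), edgeR FDR 0.00253), while its RPF was nearly level, at 409 and 407 CPM in WT and 420.1 and 419 CPM in XRN1-null (0.04 ± 0.13 (SE), edgeR FDR 0.85). With each library's trend along coding length taken out, neither the EIF1AX mRNA fall (-0.02) nor the EIF5B mRNA rise (0.34) was called. EIF1, which guards start codon choice, was at 911 and 869 CPM in WT and 756 and 757 CPM in XRN1-null for mRNA (-0.23 ± 0.06 (SE), edgeR FDR 0.00962) and at 936 and 899 CPM in WT and 650.3 and 712 CPM in XRN1-null for RPF (-0.43 ± 0.12 (SE), edgeR FDR 0.0389), lower in both XRN1-null libraries in each assay. EIF6, which keeps the large subunit apart until joining, was at 108 and 118 CPM in WT and 113 and 117 CPM in XRN1-null for mRNA (0.02 ± 0.07 (SE), edgeR FDR 0.797) and at 174 and 183 CPM in WT and 153 and 178 CPM in XRN1-null for RPF (-0.11 ± 0.14 (SE), edgeR FDR 0.607). For EIF1AD, EIF1B and EIF5A2 the log2 changes were -0.13, -0.05 and -0.25 in mRNA and 0.04, -0.28 and 0.24 in RPF.

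To compare the groups, medians of the log2 change were set side by side with those over all genes, which were -0.01 in mRNA, 0.00 in RPF and 0.01 in TE. In mRNA the medians were -0.14 for the EIF2 genes, -0.20 for EIF3, -0.06 for EIF4 and -0.13 for the EIF1, EIF5 and EIF6 genes. In RPF they were 0.04, 0.12, 0.14 and 0.04. In TE they were 0.11, 0.22, 0.25 and 0.13. All 4 groups thus had a median below 0 in mRNA and above 0 in RPF and TE, with the EIF2 genes and the EIF1, EIF5 and EIF6 genes closest to 0 in RPF. Without WT replicate 2 of RNA-Seq the mRNA median of the EIF4 genes was 0.14, and without XRN1-null replicate 1 of Ribo-Seq the RPF median of the EIF2 genes was -0.04. Without WT replicate 1 of Ribo-Seq the RPF medians of the EIF2, EIF3 and EIF4 genes were 0.01, 0.03 and 0.11, and without WT replicate 2 they were 0.12, 0.21 and 0.32. Under library totals the mRNA median of the EIF4 genes was -0.00080 and that of the EIF2 genes -0.085. With 1 RNA-Seq library left out the mRNA median of the EIF2 genes ran from -0.16 to -0.075. With 1 library left out the TE medians ran from 0.05 to 0.17 for the EIF2 genes (lowest without XRN1-null replicate 1 of Ribo-Seq, 0.06 without WT replicate 1 of Ribo-Seq or WT replicate 2 of RNA-Seq), from 0.15 to 0.29 for EIF3 and from 0.15 to 0.38 for EIF4. The lowest EIF3 and EIF4 values came without WT replicate 2 of RNA-Seq and the highest without WT replicate 2 of Ribo-Seq, and the order of EIF3 and EIF4 was not the same in every such fit. Over the 45 members the medians were -0.13, 0.12 and 0.19, and 32 of the 45 TE changes were positive, beside 5151 of 10105 over all genes. No difference between groups was tested.

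Of the 18 members called in mRNA, 16 had an RPF change of the same sign. All 8 members with higher mRNA had a positive RPF change, with medians of 0.59 in mRNA and 0.43 in RPF. Of the 10 with lower mRNA, 8 had a negative RPF change, with medians of -0.40 in mRNA and -0.18 in RPF, and all 10 had a positive TE change, as did 1692 of the 2344 genes called lower in the whole table. Of the 8 with higher mRNA, 2 had a positive TE change, as did 353 of the 2313 genes called higher. Among the lower members, EIF2A and EIF1AX were the 2 with a positive RPF change. Among the 27 members not called in mRNA, the RPF change had the opposite sign to the mRNA change in 16 (59.3%), beside 34.5% of all genes not called, and was positive in 20. Over all genes called higher in mRNA, 83.1% had a positive RPF change, and over those called lower 5.89% did. TE contains the mRNA change with opposite sign, so that members with lower mRNA tend to a positive TE change by construction. The Pearson correlation of the mRNA and RPF changes was 0.75 over the 45 members and 0.67 over the 10105 genes. Genes are not independent replicates, and all points share the same 8 libraries.

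**Figure D2:**
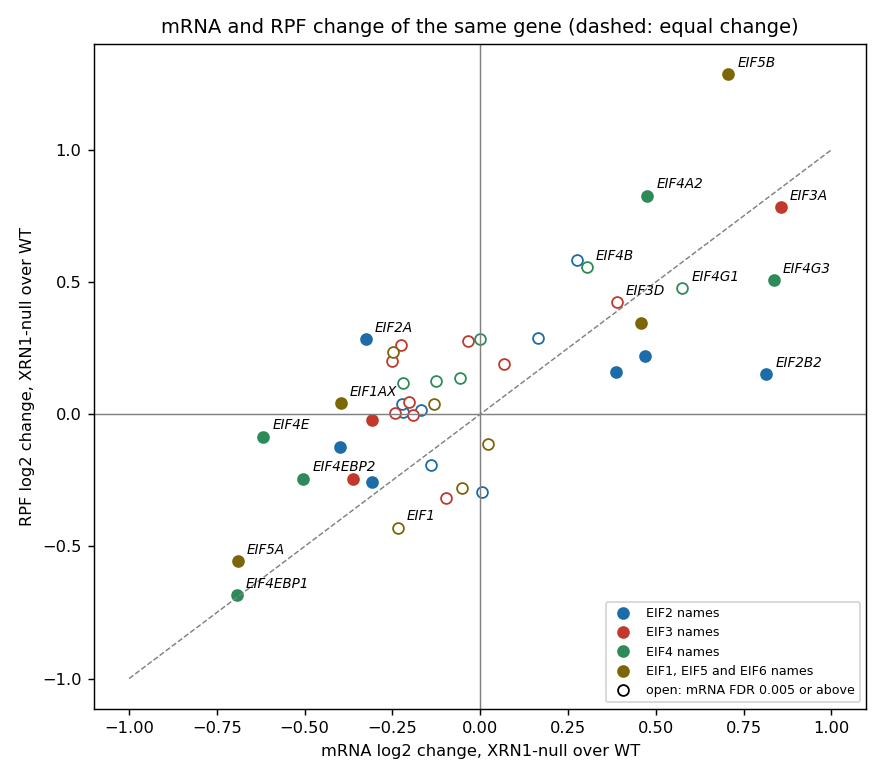
RPF log2 change against mRNA log2 change (XRN1-null over WT) of each of the 45 genes, coloured by group, with filled points for an mRNA FDR below 0.005 and a dashed line of equal change. Filled points on the right all lie above 0 in RPF, EIF5B and EIF4A2 lie above the dashed line, EIF2B2 lies far below it, and EIF4E lies left of it at an RPF change of -0.08.

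Coding length moved with these changes. Coding sequences of the members ran from 339 to 4947 nt, with a median of 1866 nt in the 8 members with higher mRNA and 652.5 nt in the 10 with lower mRNA. Over all genes called higher the median was 2235 nt, and over those called lower 816 nt. The Pearson correlation of the mRNA change with log2 coding length was 0.60 over the members and 0.47 over the 9796 genes with a coding length, and 0.62 and 0.55 over the members when each replicate number was taken alone. The ratio of the WT replicates also moved with coding length, at 0.53 in mRNA and 0.61 in RPF over the members (0.28 and 0.33 over all genes), while that of the XRN1-null replicates was at 0.18 and 0.21 (-0.06 and 0.05). These correlations are descriptions over genes that share libraries, and the part of length in the calls was not tested. In a fit with each library's trend along coding length taken out, 5 of the 8 higher and 4 of the 10 lower members were still called. With members newly called in it, this fit called 6 higher and 7 lower, beside 1804 and 1732 of all genes. EIF2B2 (0.90), EIF3A (0.45), EIF2B4 (0.33), EIF4A2 (0.49) and EIF5 (0.46) were among those called higher, and EIF5A (-0.33), EIF2S3 (-0.42), EIF2A (-0.43) and EIF2AK1 (-0.44) among those called lower. No call was left for EIF2B5, EIF4G3, EIF5B, EIF1AX, EIF3F, EIF3K, EIF4E, EIF4EBP1 and EIF4EBP2, whose changes were 0.29, 0.37, 0.34, -0.02, -0.24, -0.10, -0.35, -0.26 and -0.08 in that order. None of these 18 had a change of the other sign in this fit. Of the 27 members not called without it, 4 were called with it, EIF1B (0.39, from -0.05), EIF2AK4 (-0.69, from -0.22), EIF3E (-0.26, from -0.25) and EIF4G2 (-0.39, from -0.13). The sign was the other one for 9 of the 27, among them EIF1B and EIF1 (0.21, from -0.23).

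Levels per length placed the subunits of each complex in an order. For eIF3 without the loosely bound EIF3J, the 11 subunits among the members were compared. The subunit EIF3C was not analysed here, so the order and range are those of an incomplete set. Per kb of coding sequence, RPF was lowest for EIF3A in all 4 libraries, at 74.4 and 96.3 in WT and 142 and 153 in XRN1-null (CPM per kb), and highest for EIF3I, at 763 and 789 in WT and 767 and 791 in XRN1-null. The highest level was 10.3 and 8.20 times the lowest in the WT libraries, against 5.41 and 5.16 times in those of XRN1-null. The narrower range lay at its lower end, with EIF3A higher in XRN1-null and EIF3I, a small WD-repeat subunit, nearly level. With each library's trend along coding length taken out, the EIF3A log2 change was 0.45 in mRNA and 0.57 in RPF. Without that step these changes were 0.86 and 0.78. The difference in range was not tested. For mRNA per kb of exon width, EIF3A was again lowest and EIF3E highest, at 5.98 and 5.09 times in WT and 2.54 and 2.57 times in XRN1-null. For the eIF2 trimer, RPF per kb of coding sequence was lowest for EIF2S1, at 101 and 158 in WT and 194 and 201 in XRN1-null, and highest for EIF2S3, at 418 and 449.5 in WT and 391 and 404 in XRN1-null. The highest was 4.12 and 2.85 times the lowest in WT and 2.01 and 2.01 times in XRN1-null. For eIF2B the order from EIF2B1 down to EIF2B5 was the same in every library, with EIF2B1 at 97.3 and 87.6 in WT and 95.8 and 89.7 in XRN1-null and EIF2B5 at 19.5 and 20.9 in WT and 23.6 and 23.8 in XRN1-null, a ratio of 4.99 and 4.19 in WT, against 4.05 and 3.77 in XRN1-null. Taken per kb of exon width, the mean WT ratio was 6.82 in place of 9.23 for eIF3, 6.27 in place of 3.48 for eIF2 and 3.01 in place of 4.59 for eIF2B. By that measure EIF3E, not EIF3I, was the highest eIF3 subunit in all 4 libraries, and EIF3A was again the lowest, while EIF2B2 passed EIF2B1 in XRN1-null replicate 2. RPF counts measure ribosome occupancy, not protein.

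**Figure D3:**
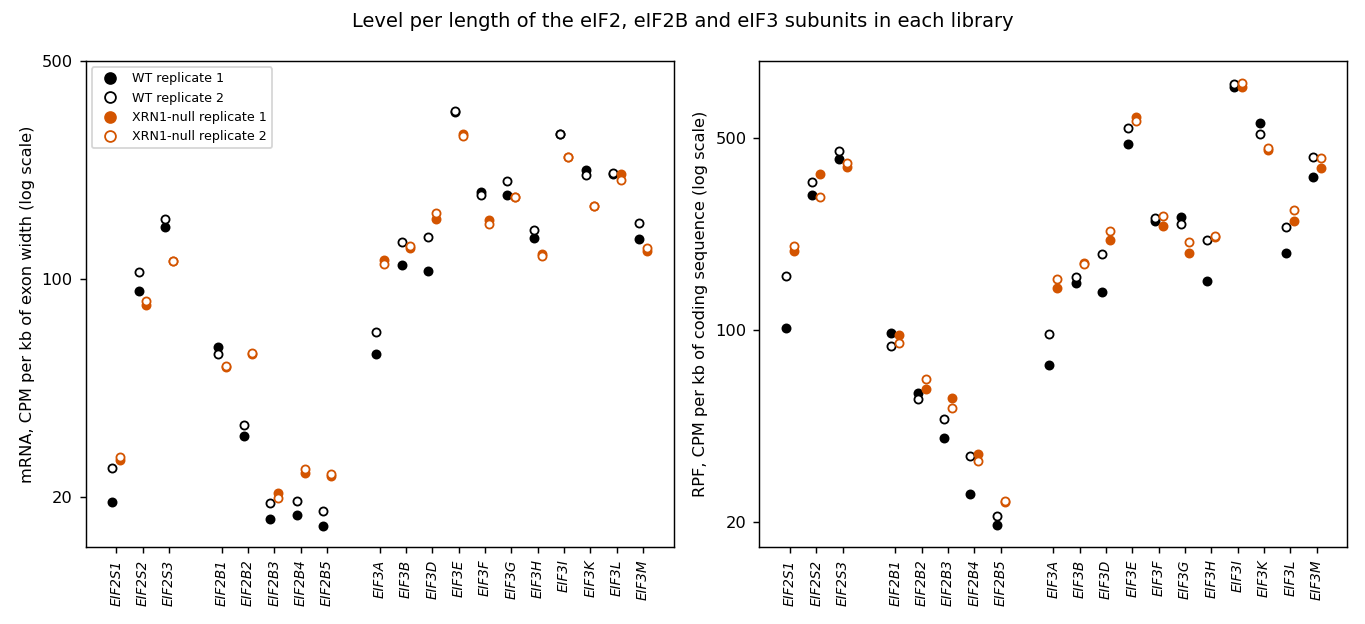
Level per length of the eIF2, eIF2B and eIF3 subunit genes (EIF3J left out, EIF3C not analysed) in each library, as mRNA CPM per kb of exon width (left) and RPF CPM per kb of coding sequence (right), both on log axes, with a filled and an open point for replicates 1 and 2. EIF3A is the lowest of the 11 plotted eIF3 subunits in every library and lies higher in XRN1-null (orange) than in WT (black) in both panels, while the RPF points of EIF3I nearly coincide.

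Members with a TOP-like start were compared with the rest, as a description without a test. The 13 members had median log2 changes of -0.20 in mRNA, 0.26 in RPF and 0.27 in TE, and 11 of their 13 TE changes were positive. The 32 others had medians of -0.11, 0.04 and 0.16, with 21 positive. Over all 559 genes with such a start the medians were -0.14, -0.09 and 0.07. The RPF median of the initiation factor genes with a TOP-like start therefore had the opposite sign to that of all such genes, which include the ribosomal proteins. Within the EIF3 genes the RPF medians were 0.23 for the 8 with and 0.00 for the 4 without a TOP-like start. Of the sequences shown above, EIF3L was at 323 and 401 CPM in WT and 420.4 and 460.4 CPM in XRN1-null for RPF (0.28 ± 0.15 (SE), edgeR FDR 0.206) and EIF3M at 404 and 478 CPM in WT and 437 and 475 CPM in XRN1-null (0.05 ± 0.14 (SE), edgeR FDR 0.845). WT replicate 1 was the low RPF library of both, as it was of EIF3A, EIF3D and EIF4B.

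A further pair of annotations was counted. A transcript annotated as a target of nonsense-mediated decay was present in 27 of the 45 member genes (60.0%), beside 48.8% of all matched genes, in 5 of the 8 members with higher mRNA (62.5%) and in 4 of the 10 with lower mRNA (40.0%). These shares lay near the 58.5% and 38.8% over all genes called higher and lower. Annotated snoRNA genes lie within the loci of 8 members, EIF1AX, EIF2AK4, EIF3A, EIF4A1, EIF4A2, EIF4G1, EIF4G2 and EIF5. Of these host genes 3 rose in mRNA (EIF3A, EIF4A2 and EIF5) and 1 fell (EIF1AX), where 22.9% and 23.2% of all genes were called, with a median log2 change of 0.17 in mRNA and 0.24 in RPF. Another gene is annotated on the opposite strand within 28 of the 45 loci and on the same strand within 12, among them RFC4 opposite EIF4A2, NANOS1 opposite EIF3A and the read-through gene SENP3-EIF4A1 over EIF4A1. Whether counting used the strand is not given in the sources used here, so reads of such neighbours cannot be told apart from those of the member.

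Close paralogs can replace each other in these complexes, and their share of the pair's counts does not depend on library scaling. By RNA-Seq, EIF4A2 made up 18.0% and 16.2% of the summed EIF4A1 and EIF4A2 reads in the WT libraries, against 25.0% and 25.2% in those of XRN1-null. Of the RPF counts it took 9.59% (exact 95% interval 8.69% to 10.6%) and 9.52% (8.96% to 10.1%) in WT, against 15.8% (15.1% to 16.5%) and 13.8% (13.1% to 14.6%) in XRN1-null. The share of EIF4A2 was higher in both XRN1-null libraries in either assay, with intervals that did not meet. EIF5A2 took 1.78% and 1.44% of the EIF5A and EIF5A2 mRNA counts in WT, against 2.27% and 2.08% in XRN1-null, and 0.967% and 0.915% beside 1.59% and 1.53% of the RPF counts, with RPF intervals that overlapped between genotypes. The deposited widths of EIF5A2 and EIF5A are 5537 and 1818 bases, and per base of width the mRNA share of EIF5A2 was 0.590% and 0.479% in WT, against 0.756% and 0.692% in XRN1-null, so the raw shares cannot be compared between the assays. EIF4EBP2 took 77.1% and 77.0% of the mRNA counts of its pair with EIF4EBP1 in WT, against 79.6% and 78.9% in XRN1-null. Of the RPF counts it took 39.1% and 37.6% in WT, against 45.2% and 46.0% in XRN1-null, with intervals that overlapped. These raw shares cannot be compared between the assays either, because the deposited width of EIF4EBP2 is 7531 bases and that of EIF4EBP1 859, while their coding sequences are 360 and 354 nt. Per base of width the mRNA share of EIF4EBP2 was 27.7% in both WT libraries and 30.8% and 29.96% in XRN1-null. Per base of coding sequence its RPF share was 38.7% and 37.2% in WT, against 44.8% and 45.6% in XRN1-null. EIF4G3 took 25.9% and 22.6% of the mRNA counts of its pair with EIF4G1 in WT, against 28.5% and 26.3% in XRN1-null, where the nearest intervals overlapped. Its RPF shares overlapped between genotypes, at 25.2%, 22.2%, 25.8% and 22.5% in the same order. EIF1B took 9.57% and 9.12% of the mRNA counts of its pair with EIF1 in WT, against 10.4% and 10.6% in XRN1-null. Intervals cover counting error only, and reads that fit both genes of a pair may have been split or dropped in counting. EIF3C, EIF3CL, EIF4E3 and EIF4EBP3 were not analysed here.

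**Figure D4:**
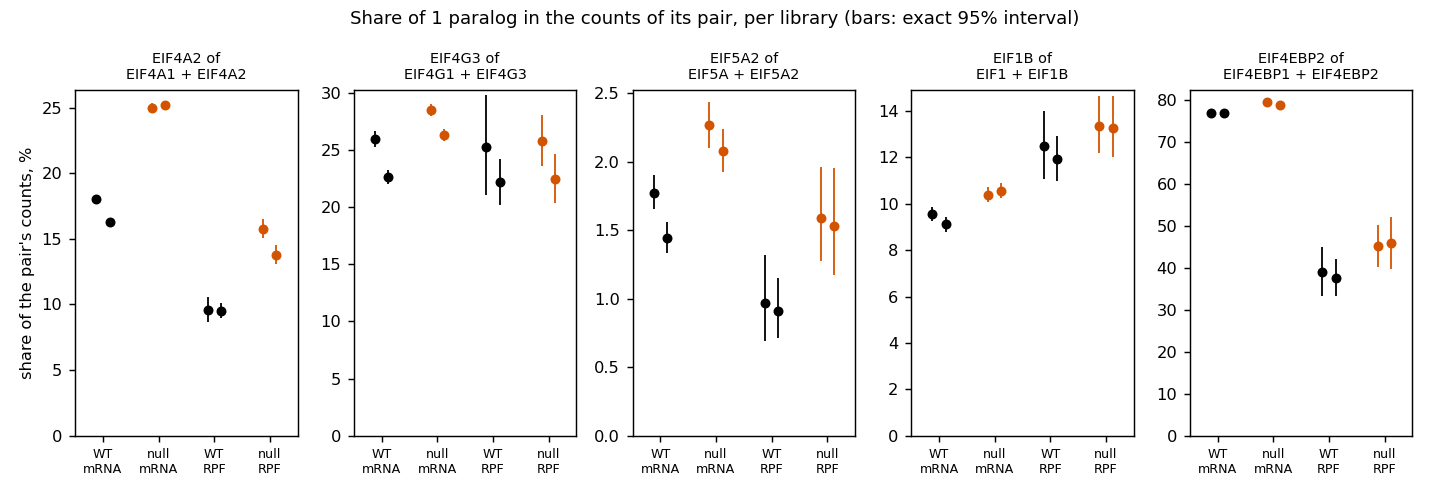
Share of the counts of 5 paralog pairs taken by the gene named first in each title, in percent, per library (black for WT, orange for XRN1-null, bars for the exact 95% interval of the count share). EIF4A2 lies at 16.2% to 18.0% of the mRNA counts in WT and at 25.0% to 25.2% in XRN1-null. The shares are of raw counts, not divided by gene length, so mRNA and RPF panels of a pair with unequal lengths, such as EIF4EBP2 and EIF4EBP1, are not on 1 scale.

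Beyond the EIF names, 36 of 37 listed genes of the poly(A)-binding, mTOR, eIF2 stress and helicase pathways were in the table. In mRNA 9 were higher and 10 lower, where 22.9% and 23.2% of all genes were, in RPF 0 higher and 1 lower, beside 0.633% and 1.14% of all genes, and in TE 1 higher and 1 lower, beside 0.0495% and 1.78%. The TE calls were the poly(A)-binding proteins that bridge eIF4G to the mRNA tail. PABPC1 was at 1348 and 1284 CPM in WT and 757 and 746 CPM in XRN1-null for mRNA (-0.81 ± 0.06 (SE), edgeR FDR 3.18e-05) and at 246 and 405 CPM in WT and 474 and 524 CPM in XRN1-null for RPF (0.61 ± 0.20 (SE), edgeR FDR 0.054). PABPC4 was at 223 and 260.3 CPM in WT and 357 and 356 CPM in XRN1-null for mRNA (0.56 ± 0.08 (SE), edgeR FDR 0.000734) and at 127 and 164 CPM in WT and 103 and 106 CPM in XRN1-null for RPF (-0.49 ± 0.15 (SE), edgeR FDR 0.0502). Their TE changes were 1.41 ± 0.24 (SE), edgeR FDR 0.00398, for PABPC1 and -1.06 ± 0.18 (SE), edgeR FDR 0.004, for PABPC4. In both genes the RPF change, which was not called, had the opposite sign to the mRNA change, and the RPF of WT replicate 1 of PABPC1 lay well below that of replicate 2. The TE call of PABPC1 was lost in the fit without XRN1-null replicate 1 of Ribo-Seq. MLST8, a core subunit of the mTOR complexes, was at 146 and 141 CPM in WT and 89.8 and 90.9 CPM in XRN1-null for mRNA (-0.67 ± 0.06 (SE), edgeR FDR 8.51e-05) and at 53.1 and 54.7 CPM in WT and 28.6 and 26.5 CPM in XRN1-null for RPF (-0.97 ± 0.15 (SE), edgeR FDR 0.00353), the RPF call of the list. The other mRNA calls past 0.5 on the log2 scale were higher for DHX29 (0.95), a scanning helicase, MTOR (0.65), the kinase itself, RPS6KB1 (0.61), the S6 kinase, DDIT3 (0.57), a stress-induced transcription factor, CYFIP1 (0.56), an eIF4E-binding protein, and TSC1 (0.50), an inhibitor of mTOR signalling. They were lower for the poly(A)-binding protein partners PAIP1 (-0.52) and PAIP2 (-0.52). PPP1R15A, the stress-induced partner of the phosphatase that restores eIF2, was below that cut but also higher in mRNA (0.47 ± 0.07 (SE), edgeR FDR 0.000842). Of the other listed genes of this step, PPP1CC was lower in mRNA (-0.32 ± 0.06 (SE), edgeR FDR 0.00271). PPP1R15B (0.02), PPP1CA (-0.10) and IMPACT (-0.27) were not called. ATF4, the transcription factor whose translation rises when eIF2 is phosphorylated, was at 1035 and 949 CPM in WT and 1128 and 1115 CPM in XRN1-null for mRNA (0.18 ± 0.07 (SE), edgeR FDR 0.0431) and at 193 and 179.6 CPM in WT and 192 and 176 CPM in XRN1-null for RPF (-0.01 ± 0.14 (SE), edgeR FDR 0.959), with overlapping RPF values.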

How the data were processed

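RNA-Seq and Ribo-Seq of 2 WT and 2 XRN1-null HEK293T cultures (8 libraries) were read from the table of raw counts per gene that the authors deposited. Per the labels and the study's methods, TruSeq RNA libraries and ribosome footprint libraries were cleaned of ribosomal RNA reads with Bowtie2 and mapped to hg19 with TopHat2. QuasR gave the counts, and an FPKM limit chose the genes. The strand setting and gene annotation used in QuasR are not given in the sources used here. The other deposited tables hold the authors' own edgeR and RiboDiff comparisons and were not used.

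Counts were fitted with edgeR 4.0.16 in R 4.3.3 (quasi-likelihood test, TMM scaling within each assay, Benjamini-Hochberg adjustment over 10105 genes, FDR below 0.005). TE was the interaction of assay and genotype over all 8 libraries. The scripts were tested on simulated data. The Ribo-Seq libraries held 1921641 to 4399542 counts, and how far this depth limits the precision of RPF and TE was not tested. Per-library values were named for eIF2, eIF2B and kinase genes, for members past the threshold in RPF or TE, for the 3 largest changes each way in each contrast, for known TOP members and for called or extreme EIF4 genes; values of other members were added after they were seen. Members and lists were chosen with earlier results of these data known. Alternatives were DESeq2 1.42.0, other scaling, a minimum of 10 counts, a replicate block, FDR 0.05, thinned RNA-Seq counts, each library left out and, chosen after seeing the data, an offset for coding length. Gene models matched 10027 of 10105 symbols.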

Additional observations from a re-analysis of the deposited data

How the results depend on the processing

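With 1 library left out, edgeR called 4 to 15 members higher and 3 to 20 lower in mRNA, 1 to 15 higher and 0 to 6 lower in RPF, and 0 to 1 higher in TE. The high counts came without a WT library (11 and 20 in mRNA without replicate 1, 15 and 20 without replicate 2; in RPF 4 and 3, and 15 and 6), the low ones without either XRN1-null library (4 and 3 in mRNA each time); the lone library is then assumed to vary like the other group. The mRNA median of the EIF2 genes ran from -0.16 to -0.075 and their RPF median from -0.037 to 0.12. The TE change of EIF4G3 ran from -0.57 to 0.11, turning to 0.11 without WT replicate 2 of Ribo-Seq.

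At an FDR of 0.05, 20 members were lower in mRNA, 4 higher and 3 lower in RPF, and 1 higher and 1 lower in TE. Library totals gave 6 lower in mRNA and 2 higher in RPF, DESeq2 gave 2 higher in RPF, a minimum of 10 counts 0, and the coding length offset 3; over all genes these counts were 1924, 133, 94, 47 and 192. The cause was not tested. The EIF2 median in mRNA was -0.12 with the coding length offset, -0.13 with DESeq2, -0.13 with RLE factors, -0.085 with library totals and -0.16 with thinned counts, and in RPF 0.11 with the offset. Highest over lowest RPF per kb of exon width was 6.27 for eIF2, 3.01 for eIF2B and 6.82 for eIF3.

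Replicate numbers were shared by the groups, but the labels tie them to no common day or culture, and same-numbered libraries deviated together weakly (correlation 0.19 in RNA-Seq, 0.08 in Ribo-Seq, 2 pairs each). With the replicate block, 7 members were higher and 2 lower in RPF, beside 616 and 665 of all genes. EIF3A, EIF4A2, EIF4G3 and EIF5B were among the higher members, and EIF4EBP1 and EIF5A were the 2 lower ones. With a replicate block by culture 1 was higher (EIF2A, edgeR FDR 0.00281) and 1 lower (EIF2B2, 0.00416) in TE, beside 55 and 435. The median leaving out EIF3C and EIF3CL gives no value, since neither was analysed here. Counting each single-gene result once per alternative, 333 values kept direction and side of the threshold, 39 were no longer called, 25 were newly called and 1 reversed. With 2 libraries a group, and Ribo-Seq totals far under those of RNA-Seq, small RPF and TE changes may have been missed. With RNA-Seq counts drawn down to Ribo-Seq totals, EIF2B4 alone of the members called in mRNA lost its call (edgeR FDR 0.0579). The cause of the few RPF and TE calls was not tested.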
